A study of Mus musculus with 3 samples.

Results

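The cells described here are Ly6c2 Ccr2 monocytes among the CD45-positive cells of 2208L mouse mammary tumours, a set of 631 cell barcodes out of 14336. Members were chosen by measured values, the UMIs of marker genes in each barcode. A barcode was a member when it had at least 200 detected genes, at most 10% mitochondrial UMIs, at least 4 UMIs summed over Ly6c2, Ms4a4c, Plac8 and Ccr2, and at least 5 UMIs of Lyz2. It also had at most 2 UMIs summed over C1qa, C1qb and C1qc, less than 1% of its UMIs from S100a8 and S100a9, and no UMI of Cd3d, Cd3e, Cd3g, Siglech or Flt3. A UMI is a molecular tag that counts 1 captured RNA molecule once. The 3 libraries of the series form 1 group with identical labels. Cells of the 2208L mammary tumour line had been placed in the mouse mammary gland, the tumours had grown for 4 weeks to 0.7 to 1 cm, and viable cells had been sorted as CD45-positive and DAPI-negative; no strain, age or treatment is given in the sources used here. The series title names ICAM1high neutrophils, and its labels call the cell type tumour although the sort was for CD45, the surface protein of blood-derived cells. Nothing says whether the 3 libraries came from separate animals, so p-values measure only the spread between these samples, which may be technical.

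Classical monocytes are made in the bone marrow, leave it through the chemokine receptor Ccr2, which binds the chemokine Ccl2, and circulate with high surface Ly6C before they enter inflamed tissue or tumours. In tissue they are known to turn into macrophages or into cells that resemble dendritic cells, losing Ly6c2 and Chil3 and gaining complement C1q, Apoe and lysosomal genes. In mouse mammary tumours such monocytes are a known source of tumour macrophages. They share the myeloid lineage with neutrophils, which carry S100a8 and S100a9 in large amounts and the receptor Cxcr2.

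The members numbered 146, 375 and 110 in libraries 1, 2 and 3, which was 3.33%, 6.24% and 2.87% of the barcodes kept. The exact 95% binomial intervals were 2.82% to 3.91%, 5.64% to 6.88% and 2.36% to 3.44%, so the share in library 2 lay above both others beyond counting error, while libraries 1 and 3 overlapped. Over the 3 libraries the share was 4.15% ± 1.83 (SD, n = 3). Among barcodes of 3 myeloid gates, with macrophages (at least 5 C1q UMIs) and neutrophils (at least 1% S100a8 and S100a9) as the others, the members made up 7.79%, 14.1% and 5.70%. Intervals cover counting error only. The macrophage gate held 1775 barcodes and the neutrophil gate 4063, both with the same exclusions of Cd3, Siglech and Flt3.

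**Figure D1:**
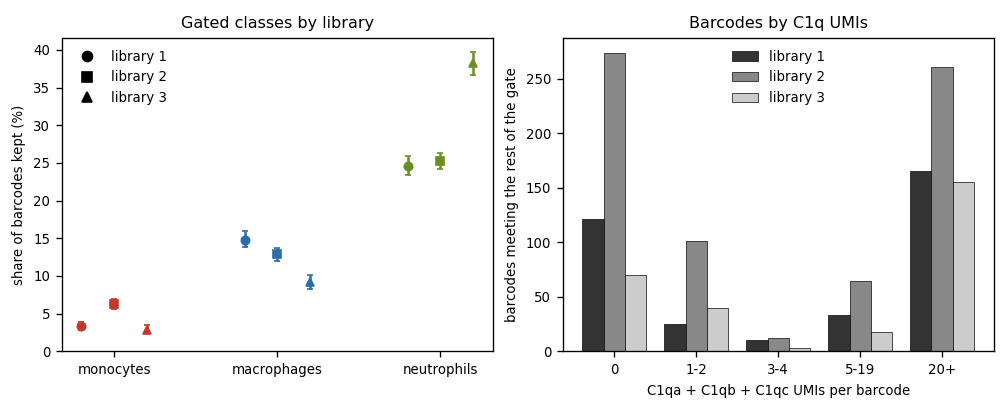
Left, share of kept barcodes in each gate (percent, axis from 0), 1 point per library with its exact 95% binomial interval; the monocyte share is 6.24% in library 2 against 3.33% and 2.87%. Right, number of barcodes that meet every other part of the monocyte gate, by C1q UMIs; 465 have none and 25 have 3 or 4.

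The libraries held 9846404, 15259236 and 9445914 UMIs over 4424, 6036 and 3876 barcodes. A member had a median of 3361 UMIs (749 to 12913), with library medians of 2734, 3370.0 and 4377.5. Macrophages were deeper (medians 4329, 4281 and 6363) and neutrophils shallower (922, 878 and 1127). The libraries shared 25 to 37 barcode sequences pairwise, 6 members had a barcode that also occurs in another library, and 0 barcodes were members in both libraries of a pair. The doublet caller Scrublet marked 2 barcodes in all, so it has not worked; 28 members were among the 600 barcodes with the highest scores, which an alternative leaves out.

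The label was checked with genes that the gate did not use, although genes whose counts go with the gate genes are chosen with them in part. A monocyte set of 12 genes (among them Chil3, F13a1, Hp, Ifitm6, Vcan, Fn1, Cd14, Ms4a6c, Csf1r, Thbs1 and Gpr141) summed to 4291, 3672 and 4167 CPM in members (UMIs per 1000000 UMIs of the library and class, with the 15 gate genes left out). It reached 2209 to 2391 in macrophages, 2439 to 2892 in neutrophils and 94.5 to 226 in T cells (at least 3 Cd3 UMIs), used as a reference, and all 12 genes were present in members. A macrophage set of 9 genes stood at 9433 to 13766 CPM in members, most of it Apoe, against 22524 to 25651 in macrophages and 213 to 315 in T cells. A neutrophil set of 9 genes stood at 327 to 425 CPM in members and at 398 to 548 in T cells, against 14601 to 16412 in neutrophils. Conventional dendritic genes summed to 55.5, 200.2 and 282 CPM, nearly all of it Cd209a. Xcr1 and Clec9a, which mark 1 subset of those cells, gave 1 UMI each over all members, and Zbtb46 gave 3. Cd209a is known from another subset of them, about which low Xcr1 and Clec9a say nothing. T cell genes summed to 25.8 to 33.8 CPM and epithelial genes to 13.2 to 33.8 CPM, with Krt19 at 0.

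Ly6c2 was detected in 63.4% of members, Ms4a4c in 73.2%, Plac8 in 95.9% and Ccr2 in 93.0%, which describes the gate and is no result. The monocyte set is given once for the barcodes just inside and just outside each threshold. Those with 2 C1q UMIs (23) had 2940.0 CPM of it and those with 3 (16) had 2877 CPM. Those with 4 UMIs of the 4 monocyte gate genes (26) had 3132 CPM and those with 3 (18) had 2939 CPM. Lyz2 at 5 UMIs (19 barcodes) gave 2704 CPM and at 4 (16 barcodes) 2416 CPM, and S100a8 and S100a9 just under 1% (9 barcodes) gave 3446 CPM and just over it (8 barcodes) 3753 CPM. The macrophage set, just inside and just outside, had 9171 and 13580 CPM for C1q and 13596 and 9674 CPM for the 4 genes. It had 6170 and 7033 CPM for Lyz2 and 7275 and 10913 CPM for S100a8 and S100a9.

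Against the C1q-positive macrophages of the same libraries, the members carried more of the genes of circulating monocytes and interferon-stimulated genes, and less of macrophage maturation, lipid-handling and cell cycle genes. The test was edgeR's quasi-likelihood one on sums per library and class, blocked by library, with p adjusted after Benjamini-Hochberg over all genes tested. Of 8364 genes, 1563 passed an adjusted p of 0.05, or 18.7%, with 829 higher in members (9.91%) and 734 lower (8.78%). The median log2 fold change over all genes was -0.02. The gates choose on C1q, so genes whose counts go with C1q are chosen with it in part. With a log2 fold change of at least 1 in size as well, 635 genes remained called, DESeq2 called 958, and sums of barcodes thinned to 1000 UMIs gave 578.

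Of 20 classical monocyte genes, 18 were higher in members than in macrophages, 0 were lower, and the list's median log2 fold change was 1.68. Hp, haptoglobin, which binds free haemoglobin, had 343, 315 and 317 CPM in members of libraries 1, 2 and 3 and 37.5, 32.6 and 22.98 in macrophages (log2 fold change 3.37 ± 0.17, edgeR adjusted p = 4.44e-10). The Hp values of members lay close together and each was above each macrophage value, as was true in either direction for 33.2% of all genes tested. Thinned to 1000 UMIs, Hp was detected in 25.5% ± 2.72 of members (SD, n = 3), 2.68% ± 0.718 of macrophages and 1.80% ± 0.358 of the T cells, and unthinned in 47.2% ± 2.39 of members. Chil3, a chitinase-like protein of marrow-derived monocytes, had 118, 22.1 and 87.3 CPM against 3.65, 1.39 and 2.17 (log2 fold change 4.87 ± 0.32, edgeR adjusted p = 6.63e-09), and the library with the largest monocyte share had the lowest level. Vcan, the matrix proteoglycan versican, had 74.9, 16.9 and 23.8 CPM against 1.99, 2.23 and 3.47 (log2 fold change 3.75 ± 0.46), again lowest in library 2. Ifitm6, an interferon-induced membrane protein, had 179, 193 and 313 CPM against 19.9, 28.1 and 29.9 (log2 fold change 3.11 ± 0.19). The list members that did not pass were F13a1, the clotting factor subunit, at 232, 86.1 and 177 against 130.3, 120.3 and 174 CPM, and Fn1, fibronectin, at 584, 495 and 629 against 494, 415 and 541 CPM. Both F13a1 and Fn1 overlapped between the classes.

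Over all genes, the 10 highest fold changes over macrophages among well-expressed genes included Cd209a, Hp, Ifitm6, Mcemp1, S100a4, Cxcl3, Hopx, Napsa and S100a6. S100a4 and S100a6 encode small calcium-binding proteins. S100a4 had 893, 689.6 and 1025 CPM in members and 121, 97.7 and 159.5 in macrophages (log2 fold change 2.81 ± 0.16, edgeR adjusted p = 9.36e-10), and S100a6 had 2584, 1844 and 2862 against 427, 366 and 514 CPM (log2 fold change 2.50 ± 0.12). Neither overlapped between the classes. Mcemp1, a membrane protein of myeloid cells, had 121 ± 32.2 CPM (SD, n = 3) against 13.8 ± 3.38 (log2 fold change 3.03 ± 0.22). Napsa, an aspartic protease, had 203, 223 and 232 CPM against 26.5, 54.3 and 23.8, with library 2 the highest of the macrophage values (log2 fold change 2.62 ± 0.19).

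Genes of patrolling monocytes, the subset that stays in vessels, were split: 4 of 12 were higher in members and 2 were lower, with a median of 0.37. Over all genes tested, 9.91% were higher and 8.78% lower. Nr4a1, the nuclear receptor that these cells need, had 350.1, 343 and 385 CPM against 173, 232 and 160.0 (log2 fold change 0.94 ± 0.12). Ace, angiotensin-converting enzyme, had 41 UMIs in members and 6 in macrophages, or 9.66, 21.3 and 15.9 against 0.995, 0.835 and 0 CPM. Ear2 and Adgre4 were also higher, at log2 fold changes of 1.92 and 2.35, but Ear2 did not pass under a stricter gate (at least 8 UMIs of the 4 monocyte genes and no C1q UMI) and Adgre4 not without library 2. Cx3cr1, the fractalkine receptor, was lower in members, at 171, 252 and 190.4 against 506, 475 and 459.9 CPM (log2 fold change -1.18 ± 0.15, edgeR adjusted p = 1.05e-05), with no overlap. Spn and Treml4, other patrolling genes, had log2 fold changes of 0.42 and 0.66 and did not pass.

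**Figure D2:**
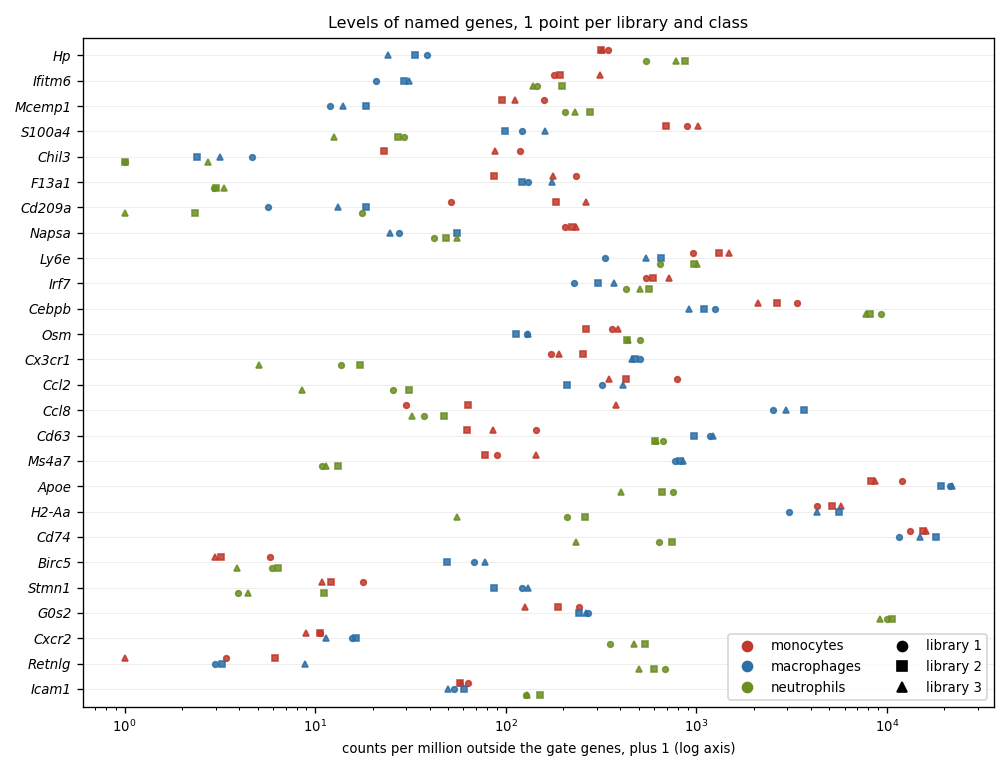
CPM plus 1 (log axis) of named genes in the gated monocytes, macrophages and neutrophils, 1 point per library and class. Hp, Ifitm6 and Mcemp1 in monocytes lie to the right of the macrophage points, Cd63, Ms4a7 and Birc5 lie to their left, and Icam1 overlaps between monocytes and macrophages.

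Macrophage maturation genes were lower in members: 22 of 24 passed as lower and 0 as higher, with a median log2 fold change of -1.40. Cd63, a lysosomal membrane protein, had 142, 61.8 and 85.3 CPM in members and 1177, 975 and 1227 in macrophages (log2 fold change -3.64 ± 0.15, edgeR adjusted p = 4.02e-11). Ms4a7 had 89.3, 77.3 and 143 against 772, 823 and 848 CPM (log2 fold change -3.04 ± 0.14) and Cd81, a tetraspanin, 67.6, 61.1 and 29.7 against 408, 400.1 and 508 CPM (log2 fold change -2.96 ± 0.17). None of these 3 genes overlapped between the classes. Vcam1, an adhesion molecule of tumour macrophages, gave 3 UMIs in members and 203 in macrophages. Apoe, the lipid carrier apolipoprotein E, was lower by a smaller step, at 12086, 8216 and 8667 against 21588, 19248 and 22045 CPM (log2 fold change -1.12 ± 0.13, edgeR adjusted p = 4.50e-06), and far above the 184, 239 and 178 CPM of T cells. Trem2, a lipid-sensing receptor, had 208, 155 and 232 against 576, 464 and 530.2 CPM, a log2 fold change of -1.40 ± 0.14. Cd68 and Lpl did not pass, at log2 fold changes of -0.12 and -0.49. Csf1r, the receptor for the growth factor of this lineage, was lower by -0.29 ± 0.09 on the log2 scale (edgeR adjusted p = 0.0327).

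Lipid and iron handling genes followed the same direction, with 13 of 19 lower, 1 (Lgals3) higher and a median of -0.96. Fabp5, a fatty-acid-binding protein, had 91.8, 58.9 and 59.5 CPM against 468, 209 and 404 (log2 fold change -2.26 ± 0.18). Ch25h, which makes 25-hydroxycholesterol, had 4.83, 7.36 and 5.95 against 33.8, 45.7 and 66.3 CPM (log2 fold change -2.84 ± 0.31). Slc40a1, ferroportin, the iron exporter, gave 0 UMIs over all members and 30 in macrophages, at least 2.55-fold lower when members are set to the floor of 3 counts over the class. Slc40a1 did not pass without library 2. Cadm1, Gas6, Zmynd15, Syngr1 and Bhlhe41 stood with Cd63 and Ccl8 among the lowest fold changes. Gas6, a ligand of the receptors Axl and Mertk that clear dying cells, had 9.66, 2.94 and 1.98 CPM against 121, 87.4 and 98.8 (log2 fold change -4.56 ± 0.28, edgeR adjusted p = 3.36e-09). Cadm1, a cell adhesion molecule, had 4.83, 2.21 and 3.97 against 81.9, 93.3 and 91.0 CPM (log2 fold change -4.83 ± 0.29). Counts of Gas6 and Cadm1 in members were 9 and 7 UMIs.

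All 20 cell cycle genes tested were lower in members than in macrophages, with a median log2 fold change of -2.56. After thinning to 1000 UMIs, 6 of them had enough counts to be tested, of which 4 were lower and 0 higher. Birc5, survivin, which acts in chromosome segregation, had 4.83, 2.21 and 1.98 CPM against 67.3, 48.4 and 76.7 (log2 fold change -4.42 ± 0.35, edgeR adjusted p = 5.65e-08). Stmn1, a microtubule regulator, had 16.9, 11.04 and 9.92 against 121, 86.3 and 129 CPM (log2 fold change -3.11 ± 0.27). The groups did not overlap for Birc5 or Stmn1. Mki67, the proliferation marker Ki-67, was detected in 0.937% ± 0.419 of members and 6.45% ± 1.65 of macrophages unthinned (SD, n = 3), and in 0% and 1.53% ± 0.306 at 1000 UMIs. At that depth T cells gave 1.15% ± 0.478. At that depth, and for counting error alone over the barcodes of all 3 libraries, the 0 of 627 thinned members allows a share with an Mki67 UMI of up to 0.478%.

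Interferon-stimulated genes, which type I and II interferons induce through Stat and Irf factors, were higher in members than in macrophages in 24 of 32 cases, lower in 1 (Bst2), with a median log2 fold change of 0.83. After thinning to 1000 UMIs, 13 of 31 were higher. Irf7, the factor that amplifies type I interferon, had 543, 593 and 716 CPM in members and 228, 304 and 368 in macrophages (log2 fold change 1.07 ± 0.10, edgeR adjusted p = 7.89e-07). Ly6e, an interferon-induced surface protein, had 956, 1317 and 1479.5 against 330.3, 649.6 and 541 CPM (log2 fold change 1.34 ± 0.10). Isg15, a ubiquitin-like protein, had 418, 506 and 488 against 212, 293 and 295 CPM (log2 fold change 0.84 ± 0.09). In all 3 genes each member value was above each macrophage value. Pyhin1, Cmpk2 and Ifi47 had log2 fold changes of 1.88 ± 0.22, 1.23 ± 0.30 and 1.15 ± 0.21. Bst2, tetherin, was lower, at 299, 429.8 and 450.2 against 405, 492 and 616 CPM with overlapping groups (log2 fold change -0.33 ± 0.11, edgeR adjusted p = 0.0364). Ly6c2, Ms4a4c and Plac8 of the gate are themselves known to respond to interferon. With a gate on Ccr2 (at least 2 UMIs) in place of the 4-gene sum, which kept 511 barcodes, 490 of them members, 18 of the 32 were higher and 1 lower, with a median of 0.65.

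Promoter windows from RefSeq (build GRCm38.p6, 250 bases before to 50 after the start of transcription) were found for 24 of the interferon-stimulated genes. The core of the interferon-stimulated response element, GAAA, any 2 bases and GAAA, was searched on both strands, and overlapping matches were allowed. They occurred in 13 of the 24 genes (54.2%), in 1 of the 12 classical monocyte genes with a window (8.33%) and in 1079 of 27025 genes with a window (3.99%). The letters TTGCNNAA, a C/EBP site, occurred in 2 of the 12 classical monocyte genes (16.7%) and in 12.2% of all genes. A match describes the letters of the window and shows no binding. The windows of Isg15 (chr4:156200769-156201068, minus strand), Ifit3 (chr19:34583279-34583578, plus strand) and Rsad2 (chr12:26456403-26456702, minus strand) are given 5′ to 3′, because these genes were called higher in members than in macrophages and hold the response element; capitals mark the matches.
Isg15: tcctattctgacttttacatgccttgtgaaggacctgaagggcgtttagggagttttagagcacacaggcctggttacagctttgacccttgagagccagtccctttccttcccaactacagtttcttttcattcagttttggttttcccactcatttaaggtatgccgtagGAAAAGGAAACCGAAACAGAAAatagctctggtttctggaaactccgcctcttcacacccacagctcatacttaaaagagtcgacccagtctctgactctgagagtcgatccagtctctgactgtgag
Ifit3: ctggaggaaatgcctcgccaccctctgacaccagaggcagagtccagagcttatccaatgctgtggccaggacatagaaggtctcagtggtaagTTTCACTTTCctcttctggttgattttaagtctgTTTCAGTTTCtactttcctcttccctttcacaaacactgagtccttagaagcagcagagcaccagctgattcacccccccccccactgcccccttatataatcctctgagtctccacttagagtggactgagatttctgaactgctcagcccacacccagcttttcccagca
Rsad2: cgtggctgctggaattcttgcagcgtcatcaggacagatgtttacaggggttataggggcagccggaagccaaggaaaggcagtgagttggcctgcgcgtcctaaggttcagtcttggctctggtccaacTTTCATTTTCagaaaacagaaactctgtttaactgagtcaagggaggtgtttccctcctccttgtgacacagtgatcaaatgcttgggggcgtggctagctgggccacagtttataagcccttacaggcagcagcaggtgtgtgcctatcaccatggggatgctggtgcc
Isg15 holds 3 matches in a row of which only neighbours overlap, Ifit3 holds 2 apart from each other, and Rsad2 holds 1. Ifit3, which acts with Ifit1 on foreign RNA, had 38.6, 55.2 and 51.6 CPM in members and 29.5, 26.5 and 34.2 in macrophages (log2 fold change 0.79 ± 0.17). Rsad2, viperin, which blocks viral replication, had 82.1, 135 and 77.3 against 68.0, 62.6 and 60.3 CPM (log2 fold change 0.77 ± 0.17). Both Ifit3 and Rsad2 were higher in members of every library.

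Genes that present antigen on MHC class II mostly did not pass against macrophages, as was true of all genes tested, of which 18.7% passed. Of 12 tested, 1 (H2-DMa, which loads peptides; not with DESeq2, without the library as block or without library 1) passed as higher and 0 as lower, and the median was 0.23. H2-Aa, a chain of the class II molecule, had 4289, 5136 and 5777 CPM against 3072, 5608 and 4309 (log2 fold change 0.29 ± 0.26, edgeR adjusted p = 0.496). Cd74, the invariant chain, had 13269, 15516 and 16001 against 11602, 18114 and 14903 CPM (log2 fold change 0.05 ± 0.22). Both genes overlapped between the classes, and the standard errors leave room for differences of either sign. Among class I genes 5 of 13 were higher and 0 lower, namely Tap1, Tap2, Psmb8, Psmb9 and Psmb10, the peptide transporter and the immunoproteasome, with log2 fold changes from 0.47 (Psmb9) to 0.80 (Tap1). Tap2 did not pass without library 2 or without library 3.

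Genes of monocytes that resemble dendritic cells were higher in members in 6 of 10 cases and lower in 0, with a median of 1.14. Fewer were higher with DESeq2 (2 of 10) and with library 3 left out (3 of 8), and without the members that have a Cd209a UMI, an alternative chosen after seeing the data, 1 of 9 was higher and 2 were lower. Cd209a, a C-type lectin that marks such cells, had 50.7, 183 and 262 CPM in members and 4.64, 17.5 and 12.1 in macrophages (log2 fold change 3.79 ± 0.40, edgeR adjusted p = 1.99e-06). With DESeq2 the difference did not pass (adjusted p = 0.0946). Library 1 was the lowest and library 3 the highest among members, and the values did not overlap those of macrophages. The 401 UMIs of Cd209a came from 7, 29 and 14 members in libraries 1, 2 and 3, or 4.79%, 7.73% and 12.7%, against 0.924% to 2.26% of macrophages. In 3, 18 and 10 members Cd209a reached 3 or more UMIs. Monocytes with Cd209a and conventional dendritic cells without a Flt3 UMI cannot be told apart here. Mgl2, another lectin, had 7.24, 61.1 and 81.3 against 11.9, 13.6 and 3.47 CPM with overlapping groups (log2 fold change 2.30 ± 0.43, edgeR adjusted p = 7.27e-04). Without the members that have a Cd209a UMI, the log2 fold change of Mgl2 was -1.26 and did not pass (edgeR adjusted p = 0.116), and with DESeq2 it did not pass either. Cd7 gave 42 UMIs, with 0, 14.7 and 43.6 CPM in members and 2.32, 6.96 and 2.60 in macrophages, and passed under 7 of its 11 alternatives.

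Chemokines divided by gene, with 8 of 18 higher in members (4 with DESeq2), 6 lower and a median of 0.04. The shares over all genes tested were 9.91% higher and 8.78% lower. Cxcl3, Cxcl2 and Cxcl1, which attract neutrophils through Cxcr2, were higher. Cxcl2 had 2999, 1234 and 1228 CPM in members and 1116, 633 and 825 in macrophages (log2 fold change 1.03 ± 0.11, edgeR adjusted p = 2.14e-06), and library 1 was the highest in both classes. Cxcl3 had 89.3, 19.1 and 19.8 against 7.96, 1.39 and 11.3 CPM (log2 fold change 2.73 ± 0.36) and Cxcl1 70.0, 36.1 and 61.5 against 25.9, 15.3 and 13.4 CPM (log2 fold change 1.54 ± 0.23). Ccl2, the ligand of Ccr2, had 794, 428 and 347 against 319, 209 and 409.6 CPM with overlapping groups (log2 fold change 0.74 ± 0.23, edgeR adjusted p = 0.0341). Cxcl10, an interferon-induced chemokine, had 283, 319 and 55.5 against 68.6, 132 and 77.6 CPM (log2 fold change 1.25 ± 0.28), with library 3 low in members. Ccl8, a macrophage chemokine, was the lowest, at 29.0, 62.6 and 379 against 2519, 3684 and 2972 CPM (log2 fold change -4.55 ± 0.40, edgeR adjusted p = 2.20e-07), with no overlap. The level of Ccl8 in members of library 3 was above those of libraries 1 and 2, and T cells had 17.2, 17.2 and 16.5 CPM.

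Of 14 receptors that guide migration, 2 were higher than in macrophages and 3 lower, where 9.91% and 8.78% of all genes tested were. Ltb4r1, the receptor for leukotriene B4, had 65.2, 58.1 and 77.3 CPM against 6.30, 13.6 and 15.6 (log2 fold change 2.43 ± 0.23, edgeR adjusted p = 5.40e-07). Cxcr4 and C3ar1, for Cxcl12 and complement C3a, were lower, at log2 fold changes of -0.62 ± 0.16 and -0.61 ± 0.13, and neither passed without library 3. Of 16 adhesion genes, 9 were higher and 3 lower, among them Itgb7, an integrin chain for gut homing, at 24.1, 61.1 and 79.3 against 6.96, 8.07 and 7.37 CPM (log2 fold change 2.87 ± 0.27), and Itgax, which encodes CD11c, at 29.0, 51.5 and 41.6 against 128, 174 and 123 CPM (log2 fold change -1.74 ± 0.15). Icam1, which the series title names and which binds the integrins of passing leukocytes, had 62.8, 56.7 and 57.5 CPM in members and 52.4, 59.3 and 48.6 in macrophages. These Icam1 values overlapped and the difference did not pass (log2 fold change 0.11 ± 0.15, edgeR adjusted p = 0.758).

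Inflammatory cytokines and targets of NF-kB were higher in 9 of 19 cases and lower in 1 (Cd83), with a median of 0.46. Among all genes tested, 9.91% were higher and 8.78% lower. Il1b, interleukin 1 beta, had 1779.6, 2369.7 and 2084 CPM in members and 1008, 1522 and 1372 in macrophages (log2 fold change 0.71 ± 0.08). Osm, oncostatin M, had 359.8, 264 and 389 against 128, 112 and 130.05 CPM (log2 fold change 1.45 ± 0.11) and Nfkbia, the NF-kB inhibitor, 609, 421 and 716 against 239, 249 and 296 CPM (log2 fold change 1.14 ± 0.11). None of Il1b, Osm and Nfkbia overlapped. Il6 was rare, with 47 UMIs in members and 15 in macrophages, at 16.9, 23.6 and 15.9 against 2.32, 2.23 and 0 CPM. Tnf did not pass, at a log2 fold change of -0.04 ± 0.22. Transcription factors of myeloid cells were higher in 10 of 21 cases and lower in 3 (Cebpa, Maf and Nr1h3; 0 with DESeq2 or without the library as block). Cebpb, a factor of emergency granulocyte and monocyte production, had 3385, 2649 and 2114 CPM against 1251, 1101 and 918 (log2 fold change 1.33 ± 0.08, edgeR adjusted p = 1.42e-09). Klf4, which monocytes need to form, had 200.4, 200.2 and 141 against 98.2, 160.1 and 104 CPM (log2 fold change 0.57 ± 0.13), and Irf8 did not pass (-0.38).

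Granule genes known from a monocyte subset that resembles neutrophils were higher in members in 4 of 10 cases and lower in 0. Of all genes tested, 9.91% were higher and 8.78% lower. Over the main fit and its alternatives, 2 to 4 of the list were higher and 0 to 3 lower. Ltf, Lcn2, Ngp, Retnlg, Stfa2l1 and Csf3r did not pass, and the rest of the 16 listed genes fell below the filter on low counts. Prtn3, proteinase 3, had 33.8, 49.3 and 23.8 CPM against 4.97, 4.18 and 3.47 (log2 fold change 3.16 ± 0.28, edgeR adjusted p = 2.34e-07). Mmp8, a collagenase, gave 35 UMIs and Cd177 51 in members against 10 and 9 in macrophages. Prtn3 was detected in 3.53% ± 1.49 of thinned members (SD, n = 3) and 0.0851% ± 0.0797 of thinned T cells. Of 20 coagulation and matrix genes, 8 were higher and 5 lower, beside the same shares of all genes. Over the main fit and its alternatives, 4 to 9 were higher and 3 to 5 lower, with medians from 0.12 to 0.57. Thbs1, thrombospondin, had 89.3, 33.1 and 49.6 CPM against 11.9, 3.90 and 3.90 (log2 fold change 3.13 ± 0.24), and Timp2, a metalloproteinase inhibitor, had 106, 50.8 and 111 against 573, 415 and 534 CPM (log2 fold change -2.59 ± 0.14).

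**Figure D3:**
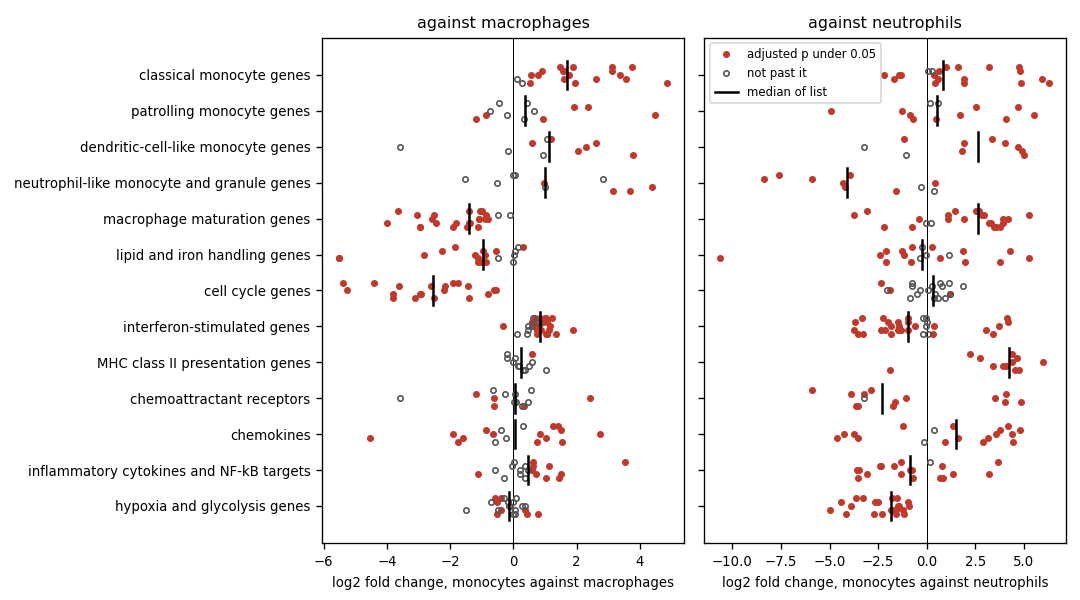
Log2 fold change of each tested member of 13 gene lists, monocytes against macrophages (left) and against neutrophils (right); filled points passed an adjusted p of 0.05 and bars mark list medians. The classical monocyte list has a median of 1.68 on the left and the hypoxia list one of -1.82 on the right.

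Against neutrophils of the same libraries, the members differed in most genes. They carried MHC class II, macrophage and monocyte genes at higher levels, and glycolysis, inflammatory and neutrophil receptor genes at lower levels. Of 8364 genes, 4961 passed (59.3%), with 2534 higher in members (30.3%) and 2427 lower (29.0%), and the median of all genes was 0.04. Scaling by library totals in place of TMM moved that median to 0.26, so small fold changes in this comparison depend on the scaling. The neutrophil gate is set by S100a8 and S100a9, and both comparisons use the same member sums, so their results are not independent of each other.

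MHC class II genes were higher in members in 11 of 12 cases, with a median log2 fold change of 4.23; Cd80, a costimulatory ligand, was lower. H2-Aa had 4289, 5136 and 5777 CPM against 209, 259 and 54.3 in neutrophils (log2 fold change 4.75 ± 0.32, edgeR adjusted p = 4.67e-10). Ciita, the regulator of class II genes, had 33.8, 43.4 and 45.6 CPM against 0, 1.34 and 0, or 2 UMIs in neutrophils. Neither H2-Aa nor Ciita overlapped between the classes, as was true in either direction for 62.0% of all genes tested. Macrophage maturation genes were higher in 17 of 24 cases and lower in 5 (among them Cd63, Ctsd, Cd81 and Cd9), with a median of 2.64. Apoe had 751, 661 and 403 CPM in neutrophils, a log2 fold change of 3.79 ± 0.14 in favour of members.

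Classical monocyte genes were higher than in neutrophils in 14 of 20 cases and lower in 4 (among them Hp, Cd14 and Msrb1). Over all genes tested, 30.3% were higher and 29.0% lower. F13a1 had the highest fold change among well-expressed genes, at 232, 86.1 and 177 CPM in members and 1.96, 2.02 and 2.31 in neutrophils (log2 fold change 5.91 ± 0.37, edgeR adjusted p = 1.78e-10). Ms4a6c had 1412 ± 68.7 against 44.3 ± 18.4 CPM (SD, n = 3; log2 fold change 4.83 ± 0.18) and Fn1 584, 495 and 629 against 17.6, 23.5 and 10.4 CPM (log2 fold change 4.85 ± 0.18). No value of F13a1, Ms4a6c or Fn1 in neutrophils reached a member value. Txndc5, Tnip3, Tnfrsf11a, Sdc4, Lpl, Cfb, Spon1, Ccdc109b and S100a4 followed, with fold changes between 5.13 (S100a4) and 5.62 (Txndc5). Cfb, complement factor B, had 31.4, 75.1 and 79.3 CPM in members and 1.96, 2.69 and 0 in neutrophils, and Tnfrsf11a, the receptor RANK, 62.8, 39.7 and 47.6 against 1.96, 0.672 and 0.578 CPM.

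All 22 hypoxia and glycolysis genes were lower in members than in neutrophils, with a median log2 fold change of -1.82, and 22 were lower under every alternative run. Hilpda, a lipid droplet protein induced by low oxygen, had 155, 116 and 137 CPM in members and 2737, 1581 and 2066 in neutrophils (log2 fold change -4.16 ± 0.11, edgeR adjusted p = 4.48e-15). Slc2a1, the glucose transporter Glut1, had 55.5, 53.0 and 47.6 against 299.97, 281 and 326 CPM (log2 fold change -2.74 ± 0.13) and Ldha, lactate dehydrogenase, 903, 952 and 805 against 2269, 1903 and 2239.6 CPM (log2 fold change -1.47 ± 0.10). Members stood below neutrophils in each library for all 3. Against macrophages the same list had 3 genes higher and 5 lower of 22, with a median of -0.13. In that comparison 9.91% of all genes tested were higher and 8.78% lower.

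Chemoattractant receptors were lower than in neutrophils in 9 of 14 cases and higher in 4 (among them Cx3cr1, C3ar1 and Cmklr1). Of all genes tested, 29.0% were lower and 30.3% higher. Cxcr2 had 9.66, 9.57 and 7.93 CPM in members, 352, 540.0 and 472 in neutrophils and 13.6, 19.3 and 16.5 in T cells, so members lay at the level of cells that lack it (log2 fold change -5.92 ± 0.20, edgeR adjusted p = 6.41e-14). Cmklr1, the chemerin receptor, had 58.0, 58.1 and 57.5 against 1.96, 2.02 and 1.16 CPM (log2 fold change 4.85 ± 0.31) and Csf3r, the receptor for the granulocyte growth factor, 43.5, 60.3 and 57.5 against 519.6, 855 and 770.2 CPM (log2 fold change -3.95 ± 0.13). Chemokines were higher in 11 of 18 cases and lower in 5, beside the same shares of all genes. Ccl2 had 24.5, 30.3 and 7.51 CPM in neutrophils, a log2 fold change of 4.43 ± 0.33, and Ccl9 1364, 548 and 1287 against 59.8, 29.6 and 38.7 CPM, one of 4.41 ± 0.18. Ccl3 went the other way, at 485, 224 and 214 against 7695, 4566 and 6674 CPM (log2 fold change -4.61 ± 0.16).

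Inflammatory cytokines were lower in 12 of 19 cases and higher in 6, where 29.0% and 30.3% of all genes tested were. Il1b had 1779.6, 2369.7 and 2084 CPM in members and 12421, 14626 and 17549 in neutrophils (log2 fold change -3.06 ± 0.09), and Il1rn, the receptor antagonist, 203, 183 and 238 against 2601, 1585 and 1939.7 CPM (log2 fold change -3.49 ± 0.13). Interferon-stimulated genes were lower than in neutrophils in 19 of 32 cases and higher in 7, with a median of -0.98. Isg15 had 3392, 4684 and 3956 CPM in neutrophils (log2 fold change -3.31 ± 0.09) and Rsad2 1297, 1091 and 1250.4 CPM (log2 fold change -3.73 ± 0.15), both above every member value. Ifi44 and Ifi204 were higher in members, at 162, 192 and 196 against 13.7, 10.8 and 4.04 CPM and 118, 130.3 and 133 against 9.80, 6.72 and 3.47 CPM. Of the genes linked to immune suppression, 15 of 19 were lower in members and 4 higher. Irg1, which makes itaconate, had 19.3, 18.4 and 21.8 CPM against 711, 756 and 732 (log2 fold change -5.46 ± 0.15, edgeR adjusted p = 7.34e-15), and Arg1, arginase 1, had 292, 100.1 and 95.2 against 6.86, 10.1 and 3.47 CPM (log2 fold change 4.23 ± 0.39). Icam1 was lower in members, at 62.8, 56.7 and 57.5 against 127, 149.9 and 128 CPM (log2 fold change -1.47 ± 0.14, edgeR adjusted p = 6.02e-08), with no overlap.

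The lowest fold changes against neutrophils belonged to Slc40a1, Stfa2l1, Retnlg, Stfa2, Mrgpra2b, Asprv1, Prok2, G0s2, Cxcr2 and Wfdc21, most of them known neutrophil genes. Slc40a1 had 83.3, 104 and 109.8 CPM in neutrophils and 0 UMIs in members, at least 77.0-fold lower at the floor of 3 counts over the class. G0s2, an inhibitor of lipid breakdown, had 241, 186 and 125 CPM in members and 10045, 10710.3 and 9255 in neutrophils (log2 fold change -6.00 ± 0.13), and Retnlg, a resistin-like protein, 8 UMIs in members. Stfa2 and Stfa2l1 belong to a family of near-identical stefin genes whose reads may be split between copies.

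These 10 genes were the highest on the smaller of their 2 fold changes among genes called higher than in both other classes: Cd209a, S100a4, Hopx, Napsa, Tnip3, Gpr141, Tppp3, Mnda, S100a10 and Ass1. Because both comparisons use the same member sums, their values are given side by side. Cd209a was detected in 4.79%, 7.73% and 12.7% of members of libraries 1, 2 and 3, and did not pass against macrophages with DESeq2. S100a4 had log2 fold changes of 2.81 against macrophages and 5.13 against neutrophils, and Hopx, a homeodomain-only protein, 2.67 and 2.55. Hopx stood at 128, 149 and 163 CPM in members, 22.6, 23.7 and 23.4 in macrophages and 20.6, 26.9 and 17.3 in neutrophils, and varied little between libraries. Tnip3, an inhibitor of NF-kB signalling, had 70.0, 153 and 119, 30.2, 24.8 and 39.4 and 1.96, 4.71 and 0.578 CPM in the 3 classes, lowest in library 1 among members. Ass1, which makes argininosuccinate on the way to arginine, had 65.2, 132 and 53.5 CPM in members and was highest in library 2, against 20.6, 31.5 and 34.7 in macrophages. Gpr141 (log2 fold changes 1.93 and 1.92) and Mnda (1.73 and 2.43), an interferon-inducible nuclear protein, differed by similar amounts from both classes.

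Barcodes that met every other part of the gate were counted by their C1q UMIs. Of these, 465 had 0 C1q UMIs, 166 had 1 or 2, 25 had 3 or 4, 115 had 5 to 19 and 581 had 20 or more, in bins of unequal width. In the bin of 3 or 4 UMIs, library 3 had 3 barcodes, so its values carry little weight. Hp had 341, 296, 99.6, 72.8 and 43.6 CPM (means of 3 libraries) from the lowest to the highest of these bins, and Ifitm6 had 223, 230.2, 71.4, 118 and 33.4 CPM. Ms4a7 had 105 and 93.0 CPM in the member bins and 246, 239 and 791 CPM above them. Ccl8 without C1q had 20.4, 76.8 and 3.19 CPM in the 3 libraries, and with 1 or 2 C1q UMIs 71.3, 27.8 and 997 CPM, so the high level of library 3 lay in the second bin. Apoe had 9925 CPM in members without C1q, 11692 with 5 to 19 UMIs and 20729 with 20 or more. The macrophage set, most of it Apoe in members, had 11377, 10865, 14809, 13500 and 24038 CPM from the lowest to the highest bin. Its rise over the bins was thus not steady. These levels are descriptions, since the bins use a gene group of the gate and deeper barcodes reach higher bins.

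**Figure D4:**
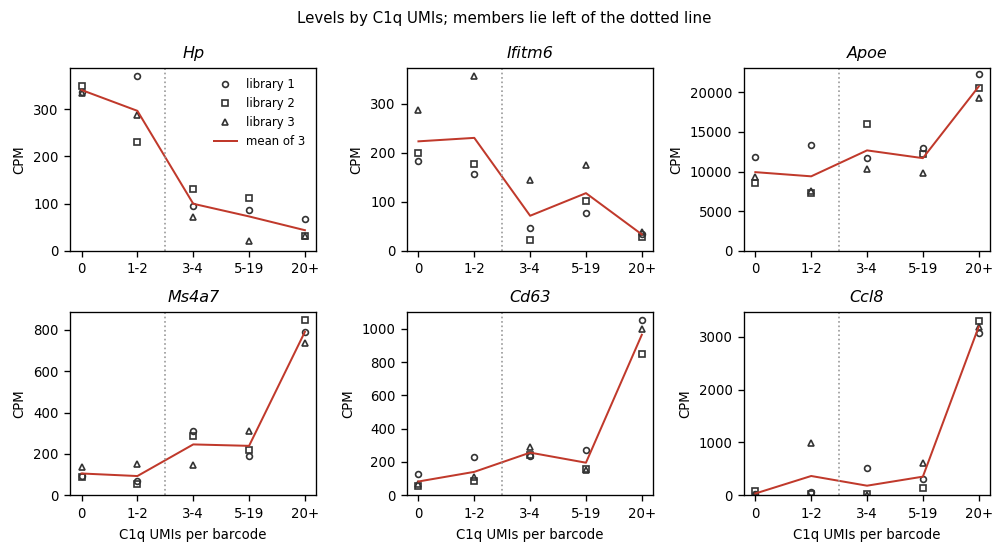
CPM of 6 genes by C1q UMIs per barcode, among barcodes that meet every other part of the gate; open symbols are libraries, the line is their mean, and members lie left of the dotted line. Hp and Ifitm6 are highest on the left, and Ms4a7, Cd63 and Ccl8 on the right.

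Among the members themselves, the genes with the largest variance over mean from cell to cell included Actb, Apoe and several of MHC class II. At 2600 UMIs per member, the Fano factor (variance over mean, 1 for counting noise alone) was taken as the lowest of the 3 libraries for 634 genes with a mean of at least 0.5 UMIs. Its median over these genes was 1.11. Actb reached 31.9, Cd74 26.2, Apoe 20.1, H2-Ab1 14.9, Fth1, a ferritin chain, 13.3, Crip1 12.4, H2-Eb1 12.2, Malat1 10.7, Spp1, osteopontin, 10.7 and H2-Aa 9.89. Chemokine genes came next, with Ccl6 at 8.03, Ccl12 at 7.90 and Cxcl2 at 7.25. The class II genes H2-DMb1 and H2-DMa stood at 2.29 and 1.74. Their means were 1.925 to 2.16 and 2.06 to 2.33 UMIs, against 37.7 to 40.8 for Cd74. The factor tends to rise with a gene's mean, so it does not compare variation between genes of unlike level. Thinned to that depth, 80, 300 and 103 members remained and 66, 75 and 7 were too shallow. The 8 class II genes summed to a median of 73.5, 68 and 51 UMIs per member, with 10th to 90th percentiles of 1 to 176, 2 to 170.0 and 1 to 212. Members with almost no class II and members with a large amount were thus present in each library. The 32 interferon-stimulated genes had medians of 7.50, 11 and 10 UMIs and the 20 cell cycle genes a median of 1 UMI in each library.

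Each library was split at its median of class II UMIs, which gave 40, 149 and 51 members in the upper group and 40, 151 and 52 in the lower group, and the sums were compared with the split genes left out. Members with more class II carried more Cd209a and Apoe, and those with less carried more of the classical monocyte genes Mgst1 and Hp. Of 1770 genes, 89 passed (5.03%), with 53 higher in the upper group (2.99%) and 36 lower (2.03%). The groups differed in depth before thinning, with median totals of 3520.5, 4046 and 4860.0 UMIs in the upper and 3204.5, 3519 and 3979 in the lower, and all were thinned to the same 2600 UMIs before the split. The count depends on single libraries: it was 112 without library 1, 18 without library 2 and 2 (Apoe and Cd209a) without library 3.

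Cd209a had 108, 296 and 399 CPM in the upper groups of libraries 1, 2 and 3 and 0, 15.7 and 30.5 in the lower groups (log2 fold change 4.18 ± 0.34, edgeR adjusted p = 2.45e-19). Of the members with a Cd209a UMI at that depth, 5, 21 and 12 lay in the upper group and 0, 6 and 2 in the lower group. Apoe had 16447, 11800.3 and 9978 CPM against 10082, 5651 and 7678 (log2 fold change 0.82 ± 0.10, edgeR adjusted p = 2.18e-10), higher in the upper group of each library although the groups overlap; it did not pass without the library as block or on unthinned counts. Slamf9, a receptor of the SLAM family, had 225, 220.2 and 146 against 68.6, 33.9 and 15.2 CPM (log2 fold change 2.57 ± 0.32), and Tnip3 157, 176 and 238 against 39.2, 67.9 and 38.1 CPM (log2 fold change 1.84 ± 0.30). Neither Slamf9 nor Tnip3 overlapped between them, as was true in either direction for 17.2% of all genes tested in the split. Slamf9 and Tnip3 no longer passed without library 3, and Tnip3 also not without the members that have a Cd209a UMI. Without those members 42 genes were called in all.

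Of 16 classical monocyte genes in this split, 6 were lower in the upper group and 0 higher, with a median of -0.48 against 0.00 over all genes. Mgst1, a glutathione transferase of membranes, had 68.6, 62.9 and 15.4 CPM in the upper and 186, 251 and 328 in the lower groups (log2 fold change -2.18 ± 0.28, edgeR adjusted p = 9.74e-10). Hp had 196, 139 and 92.1 against 265, 556 and 609 CPM (log2 fold change -1.75 ± 0.23, edgeR adjusted p = 2.78e-09), and neither Hp nor Mgst1 overlapped. Mgst1 did not pass without library 3, and Hp did not pass without library 2 or without library 3. Ifitm6 and F13a1 had log2 fold changes of -1.35 ± 0.24 and -1.26 ± 0.28, and Cebpb one of -0.77 ± 0.11; these 3 passed under 5, 4 and 5 of their 10 alternatives, and none of the 3 passed without library 2, without library 3, with DESeq2 or without the library as block. Osm had 225, 178 and 215 against 499.7, 360.4 and 617 CPM (log2 fold change -1.11 ± 0.20) and did not pass without library 3. Of 9 class I genes, 4 were higher in the upper group (H2-K1, H2-D1, B2m and Psmb8) and 0 lower, which passed under 9, 6, 3 and 2 of their 10 alternatives. H2-K1 had 980.2, 1174 and 1328 against 647, 739 and 716 CPM (log2 fold change 0.81 ± 0.13) and did not pass without library 3. Among 17 interferon-stimulated genes 0 were higher and 1 (Ifi204, in 1 of its 10 alternatives) was lower, and of 14 macrophage maturation genes 5 were higher and 0 lower (among the former Apoe, Mrc1, Cd63 and Lgmn), with Mrc1 and Cd63 passing under 3 of 9 and 3 of 7 alternatives. Fcgr4, a receptor for antibody Fc parts, had 274, 265 and 199.6 against 88.2, 123 and 68.6 CPM (log2 fold change 1.38 ± 0.24) and did not pass with DESeq2 or without library 3.

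**Figure D5:**
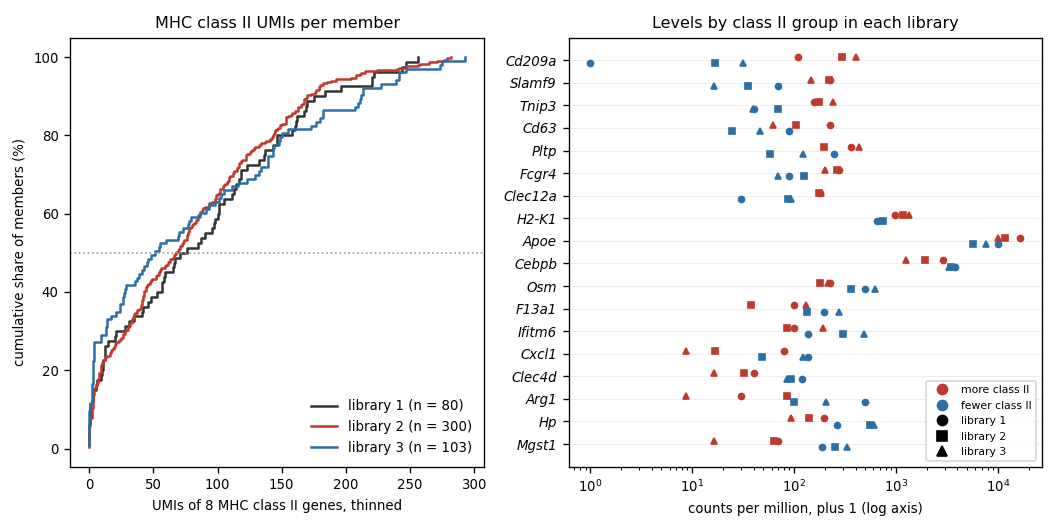
Left, cumulative share of members (percent) by UMIs of 8 MHC class II genes after thinning to 2600 UMIs, 1 line per library, with the median dotted. Right, CPM plus 1 (log axis) of named genes in the members of each library with more and with fewer class II UMIs; Cd209a and Slamf9 are higher and Mgst1 and Hp lower in the upper groups.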

How the data were processed

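RNA of single sorted CD45-positive cells was counted in 3 libraries. The authors deposited UMI counts per gene and barcode, whole numbers without normalisation. The submitters' processing notes name Cell Ranger, Seurat and mm10, with no version in the sources used here; the labels mention a 5′ platform as well as a 3′ protocol. The tables hold 28692 genes; Cebpd and Clec7a of the gene lists were not analysed here. Filters on genes and mitochondrial UMIs kept 14226 barcodes and left out 110.

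Counts were summed per library and gate, the 15 gate genes were taken out, and the 9 sums were fitted together with edgeR 4.0.16 (limma 3.58.1, R 4.3.3; TMM, filterByExpr, quasi-likelihood test, library as block, Benjamini-Hochberg at 0.05). The pairing is that of classes within a library. Standard errors come from the F statistic. The class II split was fitted apart. Thinning, Scrublet and summaries used scanpy 1.11.5, numpy 2.4.6 and Python 3.11.15, with fixed seeds. DESeq2 1.42.0 was an alternative. The fits were also run on simulated counts with 1 fixed spread and no difference between libraries beyond depth. That run says nothing about the spread between these libraries. T cells, a reference only, had at least 3 Cd3 UMIs, at most 4 of Lyz2 and at most 2 of C1q.

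Members, gene lists and alternatives were chosen with earlier results of these data known. Among genes that passed with an average log2 CPM of at least 5 and 1 direction in every library, the 10 highest and 10 lowest per class comparison, the 10 highest over both and the 5 highest and 5 lowest in the split were named. Also named, without that level or direction, were up to 4 called members per list (or the 2 with the lowest p) and Icam1. Gate genes, Ly6c1, Lyz1, predicted, ribosomal and mitochondrial genes were left out of this rule. Other list members were named after their values were seen. Some list members are not reported here by name. Itgam was matched by its Ensembl identifier and Pyhin1 through an older symbol. Alternatives changed scaling, filters, gates, depth, doublets, the block and single libraries.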

Additional observations from a re-analysis of the deposited data

How the results depend on the processing

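Of the alternatives to the count of genes called against macrophages, DESeq2 (958), thinning to 1000 UMIs (578) and a required log2 fold change of 1 (635) moved it by over 1.5 times from 1563, and against neutrophils thinning alone did so (2687, from 4961). Leaving out 1 library gave 1045 to 1159 and 3967 to 4576 genes. Without the replicate block the counts were 1344 and 4877. The class II split was the least stable. It called 13 genes with DESeq2, 20 without a filter on low counts, 11 without the replicate block, 35 on unthinned counts, 42 without members that have a Cd209a UMI and 2 to 112 with 1 library left out, against 89. The cause of these shifts was not tested. The monocyte share was 6.03% under stricter barcode filters (500 genes or more, mitochondrial UMIs up to 5%), 2.59% under a stricter gate (at least 8 UMIs of the 4 monocyte genes and no C1q UMI), and 3.10% to 4.79% with 1 library left out, against 4.15%. Among named genes that passed in the main fit or in the alternative, the sign turned once: Mgl2 against macrophages, at -1.26 without Cd209a members. Sign changes of genes that passed in neither were not counted. Apart from that case, named genes lost the threshold 43 times of 1388 checks against macrophages, 8 of 1473 against neutrophils and 165 of 369 in the class II split. Depth limits genes with few UMIs in members, such as Il6, Ace, Cd7 and Vcam1. The alternatives with Cd209a members left out and with the Ccr2 gate, which called 1425 and 4876 genes, were chosen after seeing the data.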

Other observations

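Of 18 pattern recognition receptors, 5 were higher in the monocytes than in macrophages and 1 (Ly86, which did not pass with DESeq2) was lower. Over all genes tested, 9.91% were higher and 8.78% lower. Clec4e, which senses mycobacterial and damage-derived lipids, had 212, 124 and 161 CPM in the monocytes of libraries 1, 2 and 3 and 51.4, 49.6 and 49.4 in macrophages (log2 fold change 1.67 ± 0.15, edgeR adjusted p = 3.78e-07), and Clec4d, its partner, 96.6, 59.6 and 59.5 against 35.2, 30.9 and 28.6 CPM. Against neutrophils 6 of 18 were higher and 11 lower, where 30.3% and 29.0% of all genes tested were, with Clec4d at 762, 664 and 716 CPM in neutrophils (log2 fold change -3.59 ± 0.12). Fcgr1, the high-affinity receptor for antibody, was higher in monocytes than in macrophages (log2 fold change 0.54 ± 0.15) and passed under 11 of its 15 alternatives, not among them DESeq2 and the fit without library 1, while Fcgr4 was lower (log2 fold change -0.91 ± 0.11), as was Fcgrt, at 188, 99.4 and 214 against 329.6, 277 and 349 CPM. Both receptors of transforming growth factor beta, Tgfbr1 and Tgfbr2, were lower than in macrophages, at log2 fold changes of -1.32 ± 0.14 and -1.32 ± 0.16, and Ifngr1, a chain of the interferon gamma receptor, was higher, at 287, 246 and 278 against 121, 125 and 121 CPM (log2 fold change 1.14 ± 0.11).

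Of 19 genes linked to immune suppression, 5 were higher than in macrophages and 2 lower, where 9.91% and 8.78% of all genes tested were. Arg2 and Cd200r1 were higher (log2 fold changes 1.00 ± 0.17 and 1.10 ± 0.26), Cd200r1 in 2 of 3 libraries. Arg2 did not pass without library 2, and Cd200r1 not without library 3 or under the stricter gate. Of the others, Wfdc17 was lower, at 2362, 1981 and 2307 against 4785, 4669.9 and 5014 CPM (log2 fold change -1.10 ± 0.10, edgeR adjusted p = 2.60e-07). Cd274, the checkpoint ligand PD-L1, had 24.1, 25.8 and 9.92 CPM in monocytes and 337, 273 and 287 in neutrophils (log2 fold change -4.00 ± 0.18). Within the class II split, Arg1 had 29.4, 83.9 and 7.68 CPM in members with more class II and 489.9, 99.2 and 206 in those with less (log2 fold change -1.68 ± 0.32). It passed under 2 of its 9 alternatives. Library 2 differed less between the groups than libraries 1 and 3.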
